A study of Rattus norvegicus with 12 samples.

Results

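The genes described here encode integrin chains, laminin chains and the linker proteins of the basement membrane. They were taken from a read count table of whole rat lung by symbol: the integrin alpha and beta genes, the laminin alpha, beta and gamma genes, and Nid1, Nid2 and Agrn, each with at least 10 counts in 4 or more of 12 libraries. Of 39 genes with such a symbol among 32883 genes in the table, 37 met this minimum, and each of the 37 had at least 10 counts in all 12 libraries and passed the filter on low counts of the gene test. The other two, Lama1 and Itga10, reached at most 5 and 17 counts in a library and were not tested. Itgbl1 matches the symbol pattern but encodes an integrin-beta-like protein that is not a chain of an integrin. No gene of the table carries the symbols Hspg2, Itgam or Lama3, and these were not analysed here under those symbols. Besides these 37, RefSeq gives AABR07073181.1 as another name of Hspg2, and its values are given beside the basement membrane genes without being counted among them.

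The rats were wild type and fell into 3 groups of 4 libraries, all labelled with a time of 25 days, whose starting point is not given. Control rats had neither monocrotaline nor a stated vehicle, MCT-vehicle rats received monocrotaline and the vehicle of ferrostatin-1, and MCT-Fer-1 rats received monocrotaline and ferrostatin-1, with vehicle or ferrostatin-1 given for 10 days. Monocrotaline is a plant alkaloid that injures lung vessels and is used to model pulmonary hypertension, and ferrostatin-1 blocks ferroptosis, a cell death driven by lipid peroxidation. Against Control, the effects of monocrotaline and of vehicle dosing cannot be told apart. Whether the libraries of a group stem from different rats is not stated, so the p-values refer to the spread between these libraries, which may be technical. Strain, sex, age and monocrotaline dose are not stated either.

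Library totals ran from 11601929 counts in MCT-Fer-1 1 to 70627239 counts in MCT-Fer-1 4. All 5 lung markers checked (Sftpc, Sftpb, Scgb1a1, Ager and Cldn18) were detected in every library, with a sum of 21898 to 33599 CPM (read counts scaled to a common library size by the TMM method). MCT-vehicle 2 and Control 4 stood apart by heart-muscle transcripts: 5 markers summed to 293 and 158 CPM there and to 15 to 61.3 CPM in the others. Counts of genes that passed are also given without them.

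The basement membrane is the thin protein sheet under epithelium and endothelium and around muscle cells. Laminins, each a trimer of an alpha, a beta and a gamma chain, and collagen IV form its networks, and nidogens bridge the laminin gamma 1 chain to collagen IV and to the proteoglycan perlecan. Integrins are receptors made of an alpha and a beta chain that tie the cytoskeleton to this sheet, to other matrix such as fibronectin and collagen, or to other cells. In the lung the alveolar capillary and the epithelium share a fused basement membrane, integrins with the alpha v chain release TGF-beta from its latent form, and the beta 2 and beta 7 integrins belong to leukocytes. CPM are not corrected for gene length, so levels are compared between groups and not between genes.

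Some of the genes that rose, Lamb1, Lamc1 and Nid1, encode chains and a linker that bind each other in this sheet. Their promoters are shown for this reason, and whether these genes share a regulator was not tested. Each sequence is the 250 bases before the gene start in RefSeq's GRCr8 build, written 5′ to 3′ on the gene's strand. Capitals mark GC boxes, the letters GGGCGG or, on the other strand, CCGCCC, in which overlapping matches are merged.
Lamb1, GRCr8 chr6:53562846-53563095 (+ strand): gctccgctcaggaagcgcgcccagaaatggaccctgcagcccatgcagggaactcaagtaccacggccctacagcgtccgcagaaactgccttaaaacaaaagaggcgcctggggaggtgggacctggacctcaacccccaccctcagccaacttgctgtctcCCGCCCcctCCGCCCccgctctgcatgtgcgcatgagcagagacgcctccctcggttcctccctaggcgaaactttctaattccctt
Lamc1, GRCr8 chr13:68051987-68052236 (- strand): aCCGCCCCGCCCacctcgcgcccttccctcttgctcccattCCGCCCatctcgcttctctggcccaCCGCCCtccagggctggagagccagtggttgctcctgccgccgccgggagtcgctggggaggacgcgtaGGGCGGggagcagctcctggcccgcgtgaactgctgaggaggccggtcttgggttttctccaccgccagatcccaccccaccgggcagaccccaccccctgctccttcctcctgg
Nid1, GRCr8 chr17:93069036-93069285 (+ strand): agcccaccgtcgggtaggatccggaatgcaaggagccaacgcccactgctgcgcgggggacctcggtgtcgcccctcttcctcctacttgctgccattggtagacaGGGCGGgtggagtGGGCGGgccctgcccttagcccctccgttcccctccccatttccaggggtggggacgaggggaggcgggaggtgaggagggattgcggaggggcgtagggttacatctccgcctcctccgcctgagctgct
The GC content was 62% in the Lamb1 window, 71.2% in that of Lamc1 and 68% in that of Nid1, with a median of 51.2% over all windows. The Lamb1 window held 2 GC boxes, the Lamc1 window 5 and the Nid1 window 2. A promoter sequence was matched for 27 of the 37 genes by symbol, Nid2 not among them, and 15 of these (55.6%) held at least 1 GC box, as did 30.5% of 33469 windows of the same length. The 33469 windows were not limited to the genes tested or matched for GC content, so the shares do not show a trait of this gene family. Among the matched genes that rose, 5 of 9 held the GC box letters, a share like that of all matched genes. The windows of Itgb5, Itga8, Itgae and Itgax, which also rose, held no GC box. The TATA box letters TATAAA, searched on both strands, stood in none of the printed windows and in 12.9% of all windows. Letters of further motifs were also searched and are not described here. A match to letters is a description and not a measured binding site.

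The first comparison asked what monocrotaline with vehicle changed in the lung. Of the 37 genes, 10 rose and 0 fell in MCT-vehicle by edgeR's quasi-likelihood test, with p-values adjusted by Benjamini-Hochberg over all 15257 genes tested (adjusted p below 0.05). That is 27.0% of them, whereas 10.3% of all genes tested rose and 8.28% fell. At an unadjusted p below 0.05, 15 of the 37 differed (40.5%; 32.1% of all genes tested), 13 being higher (17.2% of all genes) and 2, Itga1 and Itga2b, lower (15% of all genes). DESeq2 and limma voom also called 0 of the 37 lower, but 5 of the 23 alternative analyses called 1 lower. It was Itga1 or Itga2b, and Itga1 without MCT-vehicle 2 and Control 4. Genes that rose were the nidogens Nid2 and Nid1, the laminin chains Lamc1 and Lamb1, the integrin beta chains Itgb5 and Itgb8 and the integrin alpha chains Itga8, Itgae, Itgax and Itga2. The median log2 fold change of the 37 genes was 0.22, with a range of -0.48 to 1.02, and that of all genes tested was 0.02. The number that rose was 6 without Control 4 and 4 without MCT-vehicle 2 and Control 4, the alternative chosen after their heart-muscle transcripts were seen. Nid1, Nid2, Itga8 and Itgb5 passed the threshold in all 23 alternative analyses of this comparison. In bulk tissue, more cells of a type and more RNA per cell cannot be told apart.

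**Figure D1:**
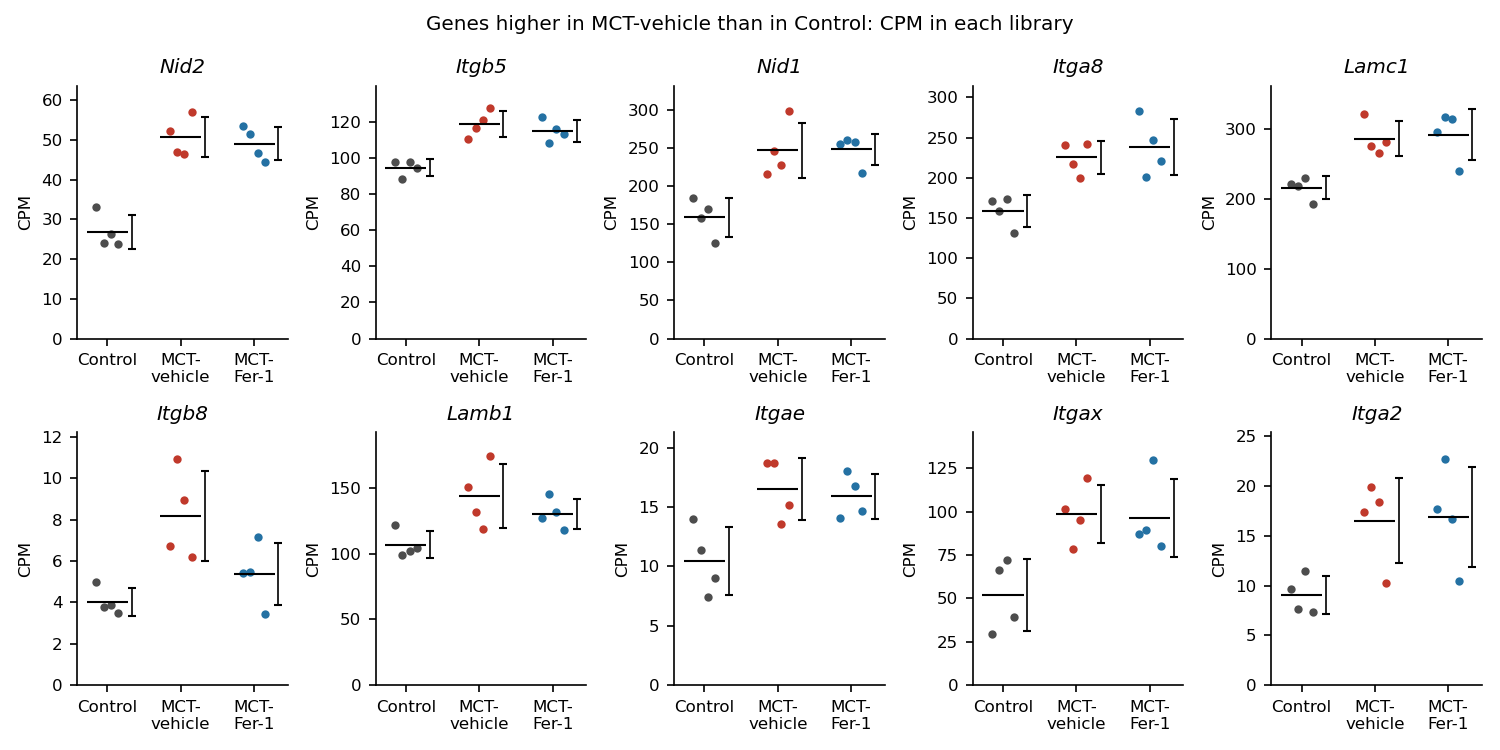
CPM (y axis, from 0, TMM-scaled) of the 10 genes higher in MCT-vehicle than in Control, by group on the x axis. Points are libraries, horizontal lines the mean of 4, and bars beside them the SD; Nid2, Nid1, Itgb5, Itga8, Lamc1 and Itgax do not overlap between Control and either monocrotaline group.

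Nidogen 2 (Nid2, ENSRNOG00000000341) had the smallest p of the 37 genes. Nid2 measured 33, 24, 26.4 and 23.7 CPM in the 4 Control libraries, 52.1, 46.9, 46.5 and 57.1 CPM in MCT-vehicle and 53.5, 51.4, 46.6 and 44.5 CPM in MCT-Fer-1. Every monocrotaline library lay above every Control library, and the monocrotaline groups overlapped. From Control to MCT-vehicle, Nid2 rose from 26.8 ± 4.33 to 50.6 ± 5.02 CPM (mean ± SD, 4 libraries each), 0.92 ± 0.11 (± SE) on the log2 scale with an adjusted p of 2.37e-04 by edgeR. Nidogen 1 (Nid1, ENSRNOG00000002461), its paralog with the same linking role, measured 185, 157, 169 and 125 CPM in the 4 Control libraries, 216, 246, 228 and 298 CPM in MCT-vehicle and 255, 261, 258 and 217 CPM in MCT-Fer-1. Its Control values also lay below all monocrotaline values, the highest being MCT-vehicle 4. From Control to MCT-vehicle, Nid1 rose by 0.63 ± 0.12 on the log2 scale (± SE; adjusted p by edgeR = 0.00417).

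Agrin (Agrn, ENSRNOG00000020205), a heparan sulphate proteoglycan that binds laminins, measured 437, 448, 446 and 462 CPM in the 4 Control libraries, 536, 437, 486 and 423 CPM in MCT-vehicle and 549, 436, 464 and 404 CPM in MCT-Fer-1. The groups overlapped, and the log2 fold change between MCT-vehicle and Control was 0.07 ± 0.10 (adjusted p by edgeR = 0.664, 95% interval -0.14 to 0.28). AABR07073181.1, the gene that RefSeq lists as another name of the perlecan gene Hspg2, ranged from 98.2 to 124 CPM in Control, from 80.7 to 155 CPM in MCT-vehicle and from 96.8 to 159 CPM in MCT-Fer-1. No change of it passed the threshold (log2 fold change 0.11 ± 0.19, adjusted p by edgeR = 0.721). Both nidogens rose, and the tests of the proteoglycans missed the threshold.

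Among the laminins, the gamma 1 chain, which most laminin trimers contain, and the beta 1 chain rose. Lamc1 (ENSRNOG00000002680) measured 221, 219, 230.2 and 192 CPM in the 4 Control libraries, 322, 275, 265 and 282 CPM in MCT-vehicle and 296, 317, 314 and 239.9 CPM in MCT-Fer-1. Its lowest monocrotaline value, in MCT-Fer-1 4, still exceeded the highest Control value. Lamc1 rose from 216 ± 16.5 to 286 ± 24.8 CPM (mean ± SD, 4 libraries each), 0.41 ± 0.10 (± SE) on the log2 scale with an adjusted p of 0.0116 by edgeR. Without MCT-vehicle 2 and Control 4 its edgeR adjusted p was 0.0571. Lamb1 (ENSRNOG00000005678) measured 122, 99.1, 102 and 104 CPM in the 4 Control libraries, 151, 132, 119 and 174 CPM in MCT-vehicle and 127, 145, 131 and 118 CPM in MCT-Fer-1. Control 1 lay above the lowest library of each monocrotaline group, so the groups overlapped. Lamb1 rose by 0.43 ± 0.11 on the log2 scale (adjusted p by edgeR = 0.0183), and its adjusted p became 0.0571 without Control 2, 0.0554 without Control 3 and 0.0516 without Control 4, and 0.0565 with MCT-vehicle 2 and Control 4 both left out.

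None of the 3 laminin alpha chains tested passed the threshold. Lama4 (ENSRNOG00000000599), an alpha chain of endothelial and muscle basement membranes, measured 169.9, 129, 123 and 110.4 CPM in the 4 Control libraries, 173, 145, 159 and 145 CPM in MCT-vehicle and 153, 165, 151 and 138 CPM in MCT-Fer-1. Control 1 was the highest Control library for Lama4 and lay within the MCT-vehicle values and above all MCT-Fer-1 values. The log2 fold change of Lama4 was 0.22 ± 0.12 (adjusted p by edgeR = 0.205), and among its 23 alternatives it passed only without Control 1, at 0.36 (adjusted p = 0.0153). Lama5 (ENSRNOG00000053691), the alpha chain of epithelial and endothelial laminins, measured 384, 312, 317 and 280.3 CPM in the 4 Control libraries, 490.3, 349, 295 and 289 CPM in MCT-vehicle and 355, 218, 246 and 252 CPM in MCT-Fer-1. MCT-vehicle 1 was the highest of all libraries and MCT-Fer-1 2 the lowest, and the log2 fold change of Lama5 against Control was 0.14 ± 0.18 (adjusted p by edgeR = 0.642). Lama2, the alpha chain of muscle laminin, stood at 47.7 ± 4.92 CPM in Control and 51.9 ± 7.01 CPM in MCT-vehicle (SD, n = 4 per group). Other chains had no call either. Lamb2 stood at 633 ± 16.9 and 589 ± 54.1 CPM, Lamc3, a gamma chain of low level here, at 7.67 ± 1.47 and 10.6 ± 3.77 CPM. Lamb3, a beta chain of epithelial laminin, stood at 252 ± 39 and 277 ± 69.6 CPM.

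Markers of the mesenchymal and vascular cells that make basement membrane were read beside the nidogens and laminins. Fibroblast markers, of which 1 of 4 (Col1a1) rose in MCT-vehicle, summed from 628 to 891 CPM in Control, from 975 to 1696 CPM in MCT-vehicle and from 779 to 902 CPM in MCT-Fer-1. Smooth muscle and pericyte markers, of which 1 of 5 (Pdgfrb) rose, summed from 558 to 959 CPM in Control, from 749.5 to 1215 CPM in MCT-vehicle and from 621 to 981 CPM in MCT-Fer-1. Endothelial markers, of which 2 of 5 (Tek and Cdh5) fell, summed from 3308 to 3611 CPM in Control, from 2044 to 2511 CPM in MCT-vehicle and from 2295 to 3373 CPM in MCT-Fer-1. The fibroblast sums separated by Col1a1, which stood at 378 ± 49.5 CPM in Control and 802 ± 198 CPM in MCT-vehicle. Without Col1a1 the other 3 summed from 308 to 503 CPM in Control and from 285 to 606 CPM in MCT-vehicle, and overlapped. MCT-vehicle 2 held the highest fibroblast and smooth muscle sums of MCT-vehicle, which reached 1141 and 1184 CPM in the other libraries. Endothelial sums were lower in MCT-vehicle than in Control without overlap, and the smooth muscle sums overlapped, with and without MCT-vehicle 2 and Control 4. The part of these cell types in the rise of Nid1, Nid2, Lamb1 and Lamc1 was not tested.

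**Figure D2:**
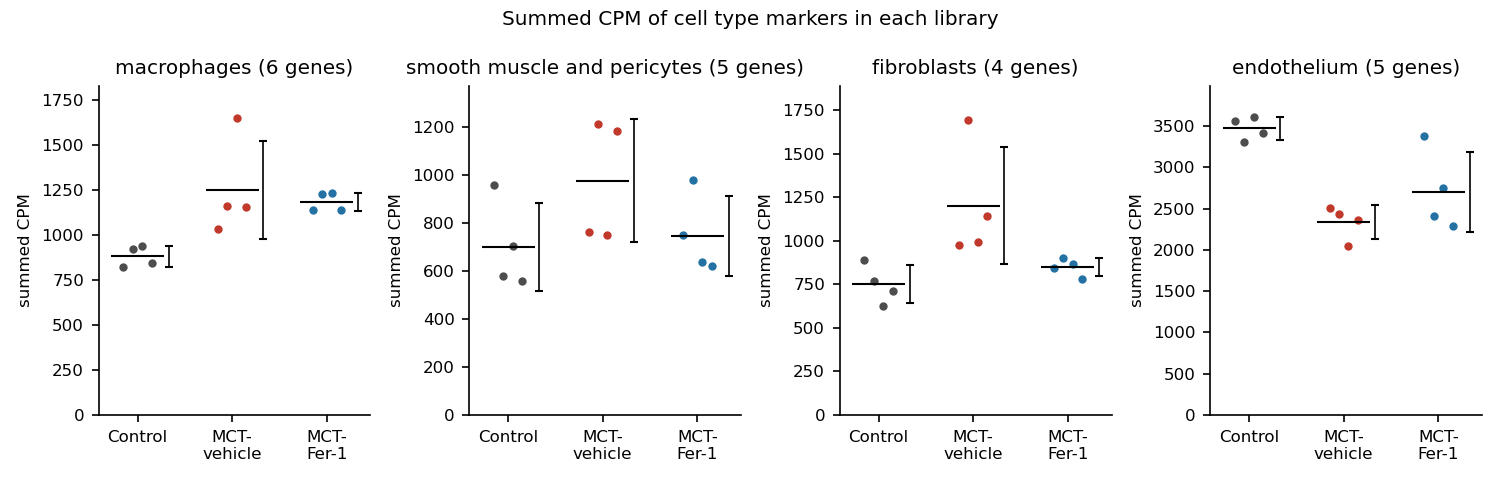
Summed CPM of the markers of 4 cell types (y axis, from 0) in each library, by group on the x axis; points are libraries, lines the mean of 4 and bars the SD. Macrophage sums are higher and endothelial sums lower in all MCT-vehicle libraries than in Control, and the smooth muscle sums overlap.

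Of the 8 integrin beta chains tested, 2 rose and 0 fell, where 10.3% of all genes tested rose and 8.28% fell. Both of these, Itgb5 and Itgb8, pair with alpha v, as do Itgb3 and Itgb6, which had no call. Itgb5 (ENSRNOG00000001795), which with alpha v binds vitronectin, measured 97.7, 88.3, 98 and 94.6 CPM in the 4 Control libraries, 111, 116, 121 and 127 CPM in MCT-vehicle and 122, 108, 116 and 113 CPM in MCT-Fer-1. Its rise was small beside a small spread, from 94.6 ± 4.51 to 119 ± 7.20 CPM (mean ± SD, 4 libraries each), 0.33 ± 0.06 (± SE) on the log2 scale with an adjusted p of 0.00369 by edgeR, with no overlap of the groups. Itgb8 (ENSRNOG00000006569), which pairs with alpha v and binds latent TGF-beta, measured 5.0, 3.77, 3.85 and 3.49 CPM in the 4 Control libraries, 6.71, 10.9, 8.95 and 6.20 CPM in MCT-vehicle and 5.43, 5.48, 7.15 and 3.45 CPM in MCT-Fer-1. MCT-vehicle values lay above all Control values, whereas the MCT-Fer-1 values overlapped with both groups. The log2 fold change of Itgb8 against Control, 1.02 ± 0.24 (adjusted p by edgeR = 0.0117), was the largest of the 37 genes, on at least 59 counts per library. Without MCT-vehicle 2 and Control 4 it was 0.78 (adjusted p = 0.0886).

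Itgav (ENSRNOG00000004912), the alpha v chain itself, measured 40.2, 44.9, 44.5 and 36.8 CPM in the 4 Control libraries, 38.8, 62, 59.4 and 42 CPM in MCT-vehicle and 53.4, 54.7, 55.2 and 42.2 CPM in MCT-Fer-1. The groups overlapped, and no call was made (log2 fold change 0.28 ± 0.15, adjusted p by edgeR = 0.224). Itgb6 (ENSRNOG00000008346), the alpha v partner of epithelium that activates latent TGF-beta, measured 179, 169, 192 and 169 CPM in the 4 Control libraries, 325, 200.3, 219.6 and 120.2 CPM in MCT-vehicle and 124, 177, 114 and 123 CPM in MCT-Fer-1. The MCT-vehicle libraries spread most, with MCT-vehicle 1 above and MCT-vehicle 4 below all Control libraries, and the log2 fold change was 0.29 ± 0.24 (adjusted p by edgeR = 0.439). Itgb1 (ENSRNOG00000010966), the partner of most alpha chains that bind laminin, collagen and fibronectin, measured 1136, 1172, 1251 and 1099 CPM in the 4 Control libraries, 1256, 1197, 1159 and 1295 CPM in MCT-vehicle and 1355, 1249, 1213 and 1137 CPM in MCT-Fer-1. Its groups overlapped, with a log2 fold change of 0.08 ± 0.07 and a 95% interval of -0.09 to 0.24 (adjusted p by edgeR = 0.529). Itgb3, the vitronectin and fibrinogen receptor chain, and Itgb4, the hemidesmosome chain, had no call, with log2 fold changes of -0.23 ± 0.13 and 0.19 ± 0.12.

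Of the 16 integrin alpha chains tested, 4 rose and 0 fell, where 10.3% of all genes tested rose and 8.28% fell. Without MCT-vehicle 2 and Control 4, Itga8 alone of the alpha chains passed as higher, and Itga1 passed as lower. Itga8 (ENSRNOG00000016538), a beta 1 partner of mesenchymal cells that binds nephronectin, measured 172, 159, 173 and 131 CPM in the 4 Control libraries, 241, 218, 200.1 and 243 CPM in MCT-vehicle and 283, 201, 247 and 221 CPM in MCT-Fer-1. All Control values lay below all monocrotaline values. Itga8 rose from 159 ± 19.5 to 225 ± 20.4 CPM (mean ± SD, 4 libraries each), 0.51 ± 0.12 (± SE) on the log2 scale with an adjusted p of 0.00949 by edgeR. Itga2 (ENSRNOG00000058111), a collagen and laminin receptor chain, measured 9.67, 7.64, 11.5 and 7.34 CPM in the 4 Control libraries, 17.4, 19.9, 18.4 and 10.3 CPM in MCT-vehicle and 17.7, 22.7, 16.6 and 10.5 CPM in MCT-Fer-1. The fourth library of each monocrotaline group fell within the Control range, and the other 6 lay above it. Itga2 rose by 0.87 ± 0.25 on the log2 scale (adjusted p by edgeR = 0.0317). Many settings ended that call. Its adjusted p became 0.0534 without Control 1, 0.0881 without Control 2 and 0.0902 without Control 4. It became 0.0631 without MCT-vehicle 1, 0.0799 without MCT-vehicle 2 and 0.0672 without MCT-vehicle 3, 0.171 with MCT-vehicle 2 and Control 4 both left out, and 0.066 by limma voom.

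The other two alpha chains that rose belong to leukocytes. Itgax (ENSRNOG00000036703), the CD11c chain of dendritic cells and alveolar macrophages, measured 29.6, 66.4, 72.2 and 39.1 CPM in the 4 Control libraries, 102, 78.5, 95.2 and 119.6 CPM in MCT-vehicle and 87, 89.3, 130.0 and 80.4 CPM in MCT-Fer-1. No monocrotaline library fell within the Control range. Itgax rose by 0.93 ± 0.26 on the log2 scale (adjusted p by edgeR = 0.0303), with values of 0.0501 without Control 1, 0.0856 without Control 4, 0.0605 without MCT-vehicle 1, 0.0521 without MCT-vehicle 3 and 0.0782 without MCT-vehicle 4 that missed the threshold. So did 0.084 with MCT-vehicle 2 and Control 4 both left out, 0.0583 with only these groups in the fit and 0.0623 with no filter on low counts. Itgae (ENSRNOG00000046639), the alpha E chain that binds E-cadherin and marks mucosal lymphocytes and a dendritic cell subset, measured 14, 11.4, 7.41 and 9.0 CPM in the 4 Control libraries, 18.7, 18.7, 13.6 and 15.1 CPM in MCT-vehicle and 14, 18.1, 16.8 and 14.7 CPM in MCT-Fer-1. Control 1 lay among the MCT-vehicle values. Itgae rose by 0.66 ± 0.18 on the log2 scale (adjusted p by edgeR = 0.0238), and the adjusted p missed the threshold at 0.0644 without Control 3, 0.0714 without Control 4, 0.0603 without MCT-vehicle 1 and 0.0593 without MCT-vehicle 2, and at 0.139 with the last named and Control 4 both left out.

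Itgb2 (ENSRNOG00000001224), the beta chain shared by Itgax, Itgal and Itgad, measured 271, 318, 351 and 277 CPM in the 4 Control libraries, 307, 327, 499 and 285 CPM in MCT-vehicle and 335, 399, 416 and 339 CPM in MCT-Fer-1. MCT-vehicle 3 was the highest, and without a call the log2 fold change was 0.22 ± 0.16 (adjusted p by edgeR = 0.374). Itgad, a macrophage alpha chain, ranged from 27.9 to 34.3 CPM in Control and from 26.7 to 95.1 CPM in MCT-vehicle, with a log2 fold change of 0.94 ± 0.31 outside the threshold (adjusted p by edgeR = 0.052), which it passed without MCT-vehicle 1 (0.00531) and by DESeq2 (0.00753). Itgal, the lymphocyte alpha L chain, had -0.15 ± 0.14 and Itgb7, the partner of Itgae, 0.26 ± 0.16 as log2 fold changes. Beside these leukocyte genes, 4 of 6 macrophage markers rose in MCT-vehicle (C1qa, Cd68, Marco and Mrc1). The 6 markers summed from 822 to 939 CPM in Control, from 1036 to 1652 CPM in MCT-vehicle and from 1137 to 1232 CPM in MCT-Fer-1. Marco was at 0 in all Control libraries and near the floor in MCT-vehicle, at 0.158 to 1.22 CPM with as few as 3 counts. T and NK cell markers, of which 0 of 5 passed, summed from 113 to 136 CPM in Control, from 73.2 to 105 CPM in MCT-vehicle and from 94.1 to 138 CPM in MCT-Fer-1. The part of cell numbers in the integrin values was not tested.

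The remaining integrin chains had no call against Control. Itga1, a collagen IV receptor chain, and Itga2b, the platelet fibrinogen receptor chain, were the lowest of the 37 in log2 fold change, at -0.41 ± 0.16 (adjusted p by edgeR = 0.0854) and -0.48 ± 0.18 (adjusted p by edgeR = 0.087). Itga1 ranged from 68.5 to 93.8 CPM in Control, from 46 to 74.9 CPM in MCT-vehicle and from 69.7 to 92.3 CPM in MCT-Fer-1. It passed as lower without MCT-vehicle 2 (adjusted p = 0.034) and without MCT-vehicle 2 and Control 4 (0.0347), as did Itga2b without MCT-Fer-1 4 (adjusted p = 0.0259). Platelet markers, of which Pf4 alone rose (1 of 3 tested), summed from 19.2 to 30.1 CPM in Control, from 32.4 to 45.7 CPM in MCT-vehicle and from 35.4 to 45.2 CPM in MCT-Fer-1. Without Pf4 the other platelet markers summed from 1.36 to 3.19 CPM in Control and from 0.817 to 2.46 CPM in MCT-vehicle, which overlap, and Gp9 and Gp1ba had log2 fold changes of -0.59 and -0.29 without a call. The fibronectin receptor chain Itga5 had a log2 fold change of -0.10 ± 0.09, and the laminin receptor chains Itga3, Itga6 and Itga7 had 0.30 ± 0.12, -0.18 ± 0.10 and -0.25 ± 0.18. For Itga3 the 4 MCT-vehicle values, 361 to 433 CPM, lay above those of Control, 272 to 359 CPM, without passing the test (adjusted p by edgeR = 0.104). Itga4, Itga9 and Itga11 had -0.05 ± 0.20, 0.22 ± 0.09 and -0.21 ± 0.20. Itgbl1, which is not an integrin chain, had -0.23 ± 0.19 without a call. Itga9 passed as higher without Control 2 (adjusted p by edgeR = 0.0438) and after thinning each library to the smallest library total (0.0454). Of the 37 genes, 9 had groups that did not overlap, 8 higher and 1 lower in MCT-vehicle, and 21.5% of all genes tested did not overlap (11.5% higher and 10.0% lower).

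**Figure D3:**
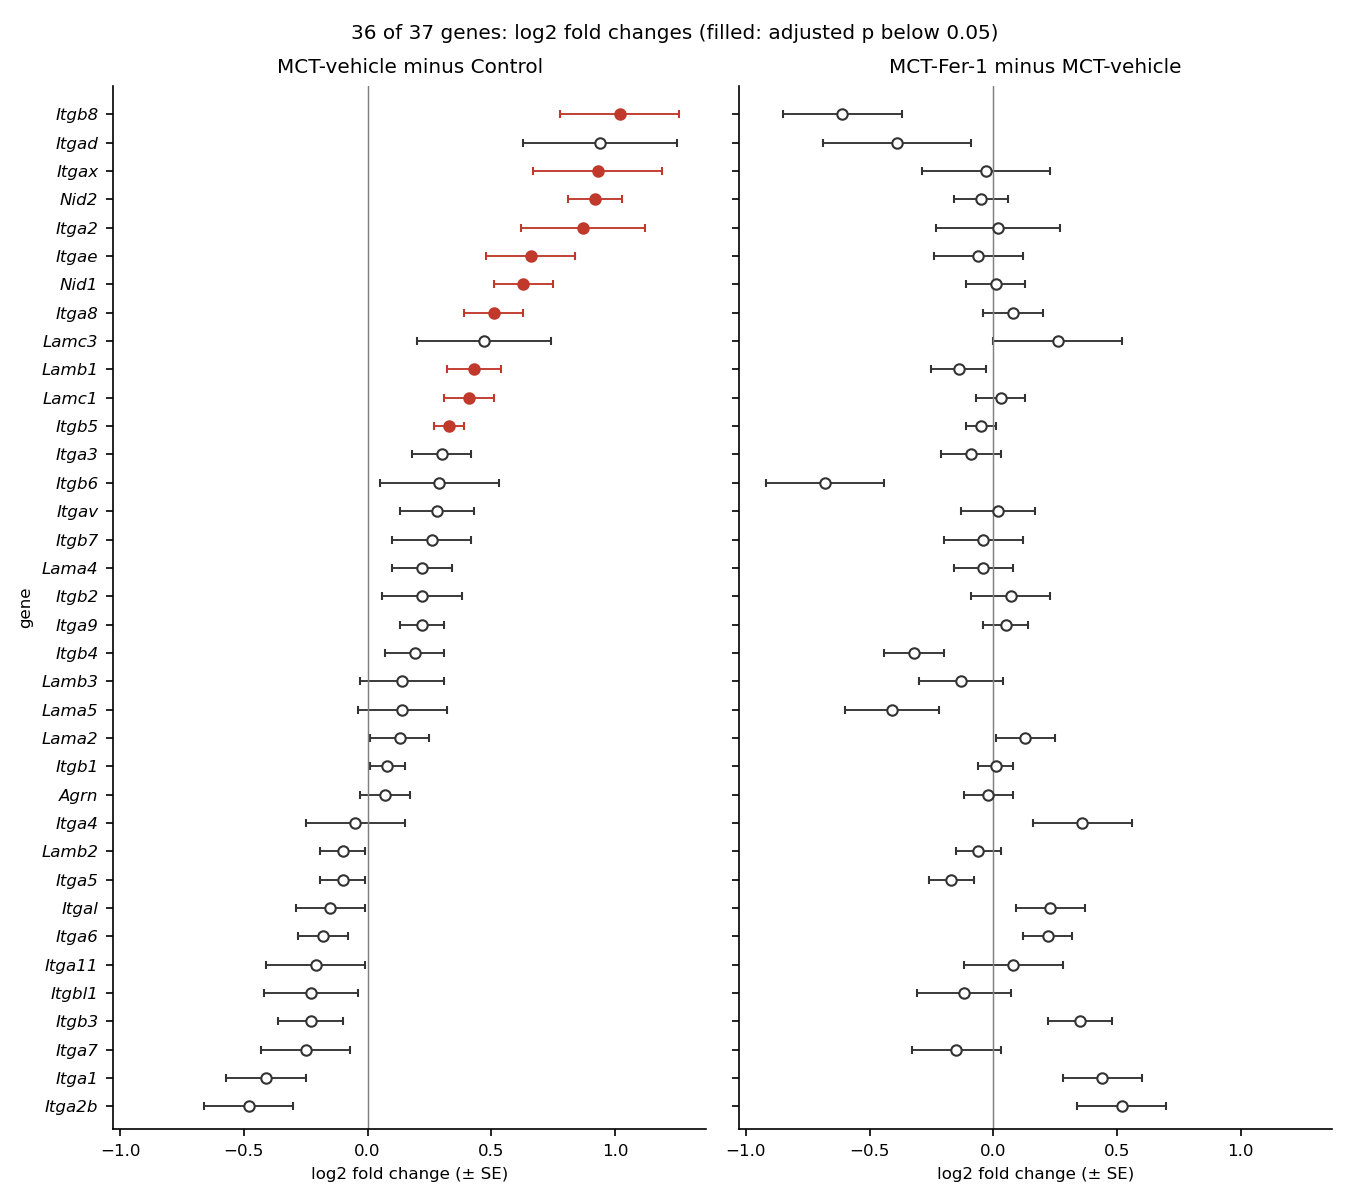
Log2 fold changes (x axis) of 36 of the 37 genes (y axis), MCT-vehicle minus Control on the left and MCT-Fer-1 minus MCT-vehicle on the right, each with its SE as a bar. Filled points passed an adjusted p of 0.05: 10 on the left, all above 0, and 0 on the right. The panels share the MCT-vehicle libraries.

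MCT-Fer-1 was compared with MCT-vehicle to ask whether ferrostatin-1 altered these genes in monocrotaline lungs. Of the 37 genes, 0 passed in this comparison by edgeR, and 0% of all genes tested did. DESeq2 and limma voom also called 0 of the 37, although DESeq2 called 237 genes in all. At an unadjusted p below 0.05 there were 9 of 37 (24.3%), of which 4 lay higher (5.85% of all genes tested) and 5 lower (6.17%) in MCT-Fer-1. Of all genes tested, 12% had such a p. The higher ones were Itga1, Itga2b, Itga6 and Itgb3, and the lower ones included Itgb4, Itgb6, Itgb8 and Lama5. None of the 37 was higher in MCT-Fer-1 without overlap of the groups, where 3.11% of all genes tested were higher, 3.00% lower and 6.10% either without overlap. The median log2 fold change was -0.03 over the 37 genes and -0.01 over all genes tested.

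The largest differences were those of Itgb6 and Itgb8. Itgb6 stood at 216 ± 84.1 CPM in MCT-vehicle and 135 ± 28.7 CPM in MCT-Fer-1 (± SD over 4 libraries each), with a log2 fold change of -0.68 ± 0.24 (adjusted p by edgeR = 0.302), with MCT-vehicle 4 among the MCT-Fer-1 values. Itgb8 stood at 8.20 ± 2.18 and 5.38 ± 1.51 CPM, a log2 fold change of -0.61 ± 0.24 (adjusted p by edgeR = 0.344). Lama5 had -0.41 ± 0.19 and Itga1 0.44 ± 0.16 as log2 fold changes.

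For Nid2, Nid1, Lamc1, Itgb5 and Itga8, which passed against Control in both monocrotaline groups, the difference between these groups was near 0. That choice of genes favours small differences. The 95% interval of the log2 fold change of MCT-Fer-1 over MCT-vehicle, not adjusted for the number of genes, was -0.29 to 0.19 for Nid2, -0.26 to 0.27 for Nid1, -0.18 to 0.24 for Lamc1, -0.18 to 0.09 for Itgb5 and -0.17 to 0.33 for Itga8. In percent, the interval for Nid2 ran from -18.2% to 14.1%. Wider intervals held for Itgax (-0.60 to 0.54) and Itga2 (-0.51 to 0.56), which leave room for changes in either direction. Itgb8, which passed against Control in MCT-vehicle and not in MCT-Fer-1, had an interval below 0, from -1.13 to -0.09. It was not called after adjustment (adjusted p by edgeR = 0.344).

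In MCT-Fer-1 against Control, which shares its Control libraries with the first comparison, 6 of the 37 genes rose (16.2%, where 6.67% of all genes tested rose) and 0 fell (4.12% of all genes), and 10.8% of all genes changed either way. At an unadjusted p below 0.05, 3 of the 37 were lower (11.9% of all genes), Itga5 and Itga7 among them, and DESeq2 and limma voom each called 1 of them, Itga5, lower. Groups did not overlap for 8 of the 37, all higher in MCT-Fer-1, while 10.6% of all genes tested were higher and 8.54% lower without overlap (19.1% in all). The 6 were Nid2, at 0.87 ± 0.11 (± SE) on the log2 scale with an adjusted p of 4.04e-04 by edgeR, Nid1 (0.64 ± 0.12, adjusted p = 0.00625), Itga8 (0.58 ± 0.12, adjusted p = 0.0069), Lamc1 (0.44 ± 0.10, adjusted p = 0.0131), Itgb5 (0.28 ± 0.06, adjusted p = 0.0141) and Itga2 (0.89 ± 0.25, adjusted p = 0.0409). Nid2, Nid1 and Itga8 passed in all 23 alternatives. Without MCT-vehicle 2 and Control 4, the only ones that passed were these 3, with adjusted p = 0.0539 for Lamc1 and 0.0535 for Itgb5. The adjusted p of Itga2 became 0.0758 without Control 1, 0.109 without Control 2, 0.116 without Control 4, 0.0512 without MCT-vehicle 1 and 0.0504 without MCT-vehicle 3. It became 0.0727 without MCT-Fer-1 1, 0.123 without MCT-Fer-1 2 and 0.0856 without MCT-Fer-1 3, 0.118 with MCT-vehicle 2 and Control 4 both left out, 0.0918 by limma voom and 0.0558 after thinning each library to the smallest library total. Of the other genes, Lama4 passed as higher without Control 1 (adjusted p = 0.0406) and Itga9 without Control 2 (0.0343), while Itga5 passed as lower without MCT-vehicle 4 (0.0434). Itga9 also passed as higher by DESeq2 (adjusted p = 0.0387), and Itgad with only these groups in the fit (adjusted p by edgeR = 0.0475).

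Of the 10 genes, 4 passed against Control in MCT-vehicle and not in MCT-Fer-1. In MCT-Fer-1 against Control, Itgax had a log2 fold change of 0.90 ± 0.26 (adjusted p by edgeR = 0.0507), Itgae 0.61 ± 0.18 (0.052), Lamb1 0.29 ± 0.11 (0.128) and Itgb8 0.41 ± 0.24 (0.332). Itgax passed in 5 of the 23 alternatives, at 0.0331 without Control 3, 0.0442 with upper quartile scaling, 0.048 with library totals, 0.00512 by DESeq2 and 0.0283 by limma voom. Itgae passed in 6, at 0.0174 without Control 1 and 0.0494 without MCT-vehicle 3, 0.0478 with upper quartile scaling, 0.03 with the replicate number as a block, 0.0162 by DESeq2 and 0.014 by limma voom. Lamb1 passed in 1, by limma voom (0.0429), and Itgb8 in none. The direct comparison of MCT-Fer-1 with MCT-vehicle called none of them. A call against Control in MCT-vehicle and none in MCT-Fer-1 therefore does not show that the treatments differ.

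The makeup of receptor pairs and laminin trimers was described by ratios of partner genes within each library, which are free of library scaling. They were given no test, and ratios of different pairs are not compared. Of 23 pairs, 5 were higher and 3 lower in MCT-vehicle than in Control without overlap of the groups, and 15 overlapped. Without MCT-vehicle 2 and Control 4 the counts were 5, 5 and 13, and each pair that did not overlap with all libraries did not overlap then. In MCT-Fer-1 against MCT-vehicle, 1 was higher, 1 lower and 21 overlapped, and in MCT-Fer-1 against Control 5 were higher, 3 lower and 15 overlapped. Of all single genes tested, 21.5% did not overlap between MCT-vehicle and Control. The share was 6.10% between MCT-Fer-1 and MCT-vehicle and 19.1% between MCT-Fer-1 and Control. No share over ratios of other genes is given, so these counts do not show that partner chains separate more often than other pairs. Pairs described here were chosen after their values were seen, mostly because their groups separate. The log2 ratio of Lamb1 to Lamb2, beta chains that replace each other in the trimer, ran from -2.69 to -2.41 in Control, from -2.40 to -1.60 in MCT-vehicle and from -2.40 to -1.86 in MCT-Fer-1. Both monocrotaline groups lay above Control, although the lowest monocrotaline libraries came close to the highest Control library. Itga8 over its partner Itgb1 ran from -3.07 to -2.73 in Control, from -2.53 to -2.38 in MCT-vehicle and from -2.63 to -2.26 in MCT-Fer-1, clear of Control in both groups. In Itgb8 over Itgav the ratio ran from -3.58 to -3.01 in Control, from -2.76 to -2.50 in MCT-vehicle and from -3.61 to -2.95 in MCT-Fer-1: MCT-vehicle lay above Control and above MCT-Fer-1, while Control and MCT-Fer-1 overlapped. Itgb6 over Itgav ran from 1.91 to 2.20 in Control, from 1.52 to 3.07 in MCT-vehicle and from 1.05 to 1.69 in MCT-Fer-1, with MCT-Fer-1 below Control and MCT-vehicle overlapping both. Itgal over Itgb2 ran from -0.69 to -0.64 in Control, from -1.16 to -0.88 in MCT-vehicle and from -1.0 to -0.75 in MCT-Fer-1, lower in both monocrotaline groups. Itga5 over Itgb1, the fibronectin receptor pair, ran from -3.39 to -3.18 in Control, from -3.54 to -3.39 in MCT-vehicle and from -3.79 to -3.53 in MCT-Fer-1, again lower in both, MCT-vehicle bordering on the lowest Control library. Itga6 over Itgb1, a laminin receptor pair, ran from -3.31 to -3.04 in Control, from -3.58 to -3.35 in MCT-vehicle and from -3.31 to -3.15 in MCT-Fer-1, and here MCT-vehicle was below each of the other groups. Nid2 over Nid1 ran from -2.71 to -2.40 in Control, from -2.39 to -2.05 in MCT-vehicle and from -2.47 to -2.25 in MCT-Fer-1, so that MCT-vehicle lay just above Control and MCT-Fer-1 overlapped with both. Among the pairs that overlapped between all groups, Itgb5 over Itgav ran from 0.97 to 1.36 in Control, from 0.91 to 1.60 in MCT-vehicle and from 0.98 to 1.43 in MCT-Fer-1. Itgb3 over Itgav ran from -1.08 to -0.71 in Control, from -1.74 to -0.73 in MCT-vehicle and from -1.30 to -0.83 in MCT-Fer-1. Itgae over Itgb7 ran from -1.84 to -0.88 in Control, from -1.19 to -0.20 in MCT-vehicle and from -1.03 to -0.65 in MCT-Fer-1. Itga1 over Itgb1 ran from -4.00 to -3.74 in Control, from -4.77 to -4.00 in MCT-vehicle and from -4.07 to -3.72 in MCT-Fer-1; it was lower in MCT-vehicle than in Control without overlap when MCT-vehicle 2 and Control 4 were left out.

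**Figure D4:**
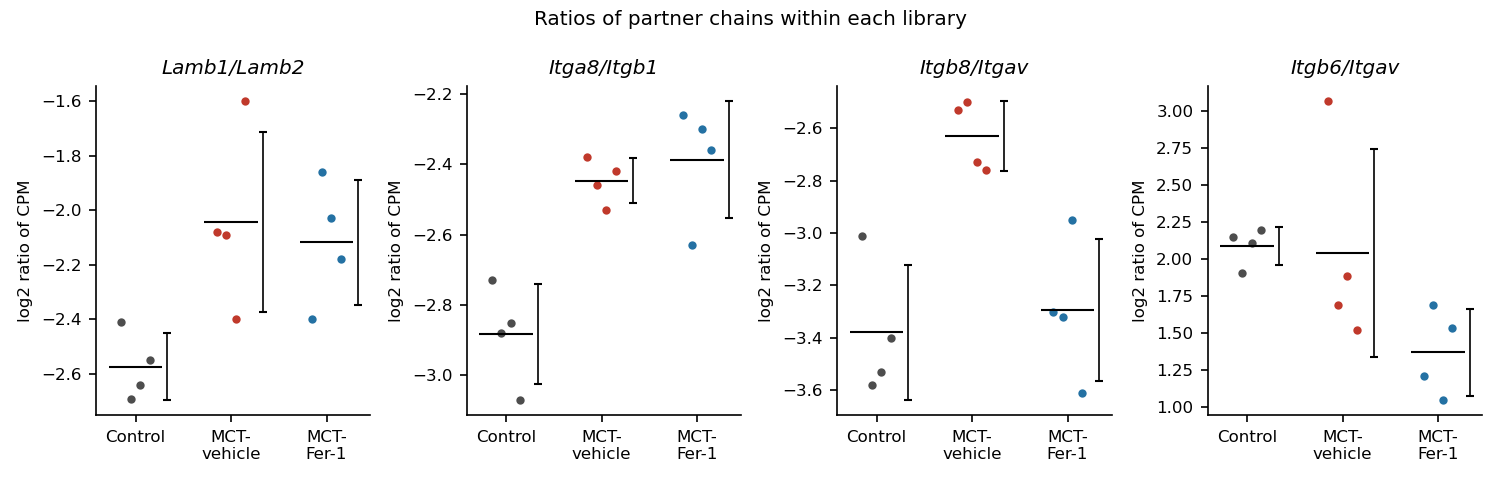
Log2 ratio of CPM of partner chains (y axis) in each library, by group on the x axis; points are libraries, lines the mean of 4 and bars the SD, and the y axes do not start at 0. The ratio of Itgb8 to Itgav is higher in all 4 MCT-vehicle libraries than in any Control or MCT-Fer-1 library, and that of Itga8 to Itgb1 is higher in all 8 monocrotaline libraries than in Control.

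Other genes of adhesion and basement membrane were read from 4 lists of 30 symbols each, beside 10.3% of all genes tested that rose and 8.28% that fell in MCT-vehicle against Control. These lists were chosen with earlier results of these data known. Their shares therefore describe the listed genes and do not show that such genes rise more often than others. In all 4 lists, 27 of 115 rose (23.5%) and 9 fell (7.83%), and 18 rose and 7 fell without MCT-vehicle 2 and Control 4. For the ligands of integrins, 13 of 27 rose (48.1%) and 1 fell (3.70%) in MCT-vehicle against Control, with a median log2 fold change of 0.37 where all genes tested had 0.02. Fibronectin (Fn1), the ligand of alpha 5 beta 1 and alpha v integrins, rose from 749.9 ± 131 to 2456 ± 336 CPM (± SD over 4 libraries each), with a log2 fold change of 1.71 ± 0.21 (± SE; adjusted p by edgeR = 2.60e-04). Thrombospondin 2 (Thbs2) rose by 2.50 ± 0.28 on the log2 scale and Svep1, a ligand of integrin alpha 9, by 0.95 ± 0.13, and the junctional adhesion gene Jam2 was lower (-0.88 ± 0.12). For other basement membrane proteins, 8 of 30 rose (26.7%) and 2 fell (6.67%), with a median of 0.19. Collagen IV alpha 1 (Col4a1) rose by 0.74 ± 0.14, from 1288 ± 161 to 2153 ± 344 CPM, Col18a1 by 1.30 ± 0.19 and the crosslinking enzyme gene Loxl2 by 0.93 ± 0.12. Genes of this list that fell were Frem2 (-0.97 ± 0.16) and the netrin gene Ntn4 (-0.45 ± 0.08).

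For focal adhesion proteins and integrin activators, 2 of 30 rose (6.67%) and 4 fell (13.3%), with a median of -0.01, shares not far from those of all genes (10.3% and 8.28%). Those that rose were Fermt3 (0.66 ± 0.12), the kindlin of blood cells that activates integrins, and Parvg (0.80 ± 0.18), a parvin of blood cells. Tns2 (-0.67 ± 0.09), Kank2 (-0.49 ± 0.11) and Lims2 (-1.02 ± 0.22) of the focal adhesion were lower, as was Rap1a. For non-integrin matrix receptors, 4 of 28 rose (14.3%) and 2 fell (7.14%), again near those of all genes, with a median of 0.01. The hyaluronan receptor genes Hmmr (1.46 ± 0.22) and Lyve1 (-1.09 ± 0.12) moved in opposite directions, Cd81 rose (0.44 ± 0.07), Cd9 fell (-0.41 ± 0.09) and the sarcoglycan gene Sgca rose (0.78 ± 0.17). Against MCT-vehicle, 0 of the 115 tested genes of these lists passed in MCT-Fer-1 by edgeR. In MCT-Fer-1 against Control 15 rose (13%, with 6.67% of all genes) and 5 fell (4.35%, with 4.12% of all genes). The number that rose there was 8 without Control 4, 9 without MCT-Fer-1 3 and 9 without both MCT-vehicle 2 and Control 4, and the number that fell was 3 without Control 2 or MCT-Fer-1 4 and 9 without MCT-Fer-1 1.

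Markers of other cell types had these values. Alveolar type 1 markers, of which 0 of 5 passed in MCT-vehicle against Control, summed from 4734 to 6271 CPM in Control, from 4023 to 5682 CPM in MCT-vehicle and from 4309 to 6221 CPM in MCT-Fer-1. Alveolar type 2 markers, of which 0 of 4 passed, summed from 20942 to 23013 CPM in Control, from 12076 to 20661 CPM in MCT-vehicle and from 11657 to 21396 CPM in MCT-Fer-1. Neutrophil markers, with 0 of 5 called, summed from 163 to 292 CPM in Control, from 132 to 198 CPM in MCT-vehicle and from 96.4 to 486 CPM in MCT-Fer-1. B cell markers, with 0 of 2 called, summed from 30.5 to 32.3 CPM in Control, from 18.6 to 33.6 CPM in MCT-vehicle and from 12.8 to 40.8 CPM in MCT-Fer-1. Mast cell markers, all 4 of which rose, summed from 20.9 to 38.4 CPM in Control, from 234 to 764 CPM in MCT-vehicle and from 223 to 484 CPM in MCT-Fer-1. Skeletal muscle markers, of which 1 of 2 tested (Tnnt3) rose, summed from 6.26 to 12.9 CPM in Control, from 11.9 to 16.9 CPM in MCT-vehicle and from 5.43 to 11.6 CPM in MCT-Fer-1, and of the heart-muscle markers tested 0 of 4 passed. The mast cell sums were far apart between Control and both monocrotaline groups, and their part in the values of the 37 genes was not tested.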

How the data were processed

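The authors deposited raw read counts per gene for 12 whole-lung libraries, per the file headers. Their 3 columns of group means, recorded as a signal in the deposited table, were not used. No source used here states the aligner, the counting tool, its strand setting or the build, so the only coordinates printed are those of RefSeq's promoters, and overlapping genes cannot be told apart.

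Of 32883 genes, filterByExpr kept 15257. They were scaled by TMM and fitted with edgeR 4.0.16 (R 4.3.3; robust quasi-likelihood F test, 1 coefficient per group over all 12 libraries, 9 residual degrees of freedom) and adjusted by Benjamini-Hochberg. The SE is the log2 fold change over the square root of F. A count of 3 equals 0.042 to 0.259 CPM, counting error only.

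Members, lists, markers and alternatives were chosen with earlier results of these data known. Values in every library are given for members past the threshold in any comparison and for Itgb1, Itgav, Itgb6, Itgb2, Lama4, Lama5 and Agrn. Up to 3 higher and 3 lower genes with the smallest p are named per list, and Rap1a besides. The values of 1 member are counted in the totals and are not reported here. Of 120 list symbols, 119 matched. The smallest chi-square between libraries was 10.4 per degree of freedom, so none was a duplicate. Alternatives were other size factors and filters, DESeq2 1.42.0, limma 3.58.1 voom, only the groups compared, a replicate block, thinning and leaving out each library. Leaving out MCT-vehicle 2 and Control 4 together was added after seeing the data.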

Additional observations from a re-analysis of the deposited data

Results flagged for a closer look

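In each group of 4 libraries, the gap between the highest or lowest library and its nearest neighbour was set against the whole range of the group by Dixon's criterion at the 95% level. Of 111 such groups, 37 genes in 3 groups, 7 were marked, where chance marks about 1 in 20. In MCT-Fer-1 4, the most deeply sequenced library, 3 genes were set apart as the lowest: Nid1 (217 CPM against 255 to 261 CPM in the other libraries of its group), Itgav (42.2 CPM against 53.4 to 55.2 CPM in the other libraries of its group) and Itgb4 (33.8 CPM against 40.9 to 41.7 CPM in the other libraries of its group). The Nid1 value still exceeded all Control values. The laminin beta chain Lamb2 was set apart as the highest in MCT-Fer-1 1 (668 CPM against 526 to 537 CPM in the other libraries of its group), and Itgb6 in MCT-Fer-1 2 (177 CPM against 114 to 124 CPM in the other libraries of its group). The macrophage chain Itgad was highest in Control 3 (34.3 CPM against 27.9 to 28.9 CPM in the other libraries of its group), and Itgb7 was lowest in MCT-vehicle 1 (21.4 CPM against 31 to 32.5 CPM in the other libraries of its group).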

How the results depend on the processing

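All 16 calls of named genes kept their sign in 23 alternatives. Of 38 uncalled values, 17 changed sign in at least 1 alternative, the largest of these having a log2 fold change of 0.14. Leaving out 1 library gave 6 to 10 of the 37 genes higher (10 with all libraries, 6 without Control 4) and 0 to 1 lower (0; Itga1 without MCT-vehicle 2, Itga2b without MCT-Fer-1 4) in MCT-vehicle against Control, and 2021 to 2860 genes in all (2843). In MCT-Fer-1 against Control it gave 5 to 7 higher (6), 0 to 1 lower (0; Itga5 without MCT-vehicle 4), 977 to 1714 genes in all (1646) and, in the 4 lists, 8 to 17 higher (15; 8 without Control 4, 9 without MCT-Fer-1 3) and 3 to 9 lower (5; 3 without Control 2 or MCT-Fer-1 4, 9 without MCT-Fer-1 1). The lowest totals came without MCT-Fer-1 2 (977), Control 4 (978) and MCT-Fer-1 3 (995). In MCT-Fer-1 against MCT-vehicle it gave 0 to 41 genes in all (0), with 41 without MCT-vehicle 3, 3 without Control 2 and 2 without MCT-Fer-1 4, and 0 of the 37. Without both MCT-vehicle 2 and Control 4 there were 4 higher and 1 lower (Itga1) and 1675 genes in all in MCT-vehicle against Control. In MCT-Fer-1 against Control the same setting gave 3 higher, 978 genes in all and, in the lists, 9 higher and 3 lower. These settings have fewer samples. With only the groups compared, 1 of the 37 was lower in MCT-vehicle (Itga2b), and 1 gene in all was called in MCT-Fer-1 against MCT-vehicle. DESeq2 called 237 genes there, 1 higher and 1 lower in the lists. In MCT-Fer-1 against Control, DESeq2 and limma voom each called 1 of the 37 lower (Itga5) and 10 lower in the lists, and the cause was not tested. Same-numbered libraries correlated at -0.063 to 0.073, -0.040 to 0.035 and 0.010 to 0.102 in deviations from the group means in the 3 comparisons. These low values over all genes tested gave no ground for pairing the libraries by number. They cannot exclude a factor that same-numbered libraries share in some genes. With the replicate number as a block, 10 of the 37 were higher and 1 lower (Itga1) in MCT-vehicle against Control, 0 of the 37 changed in MCT-Fer-1 against MCT-vehicle, and 7 were higher and 1 lower (Itgbl1) in MCT-Fer-1 against Control.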

Other observations

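The spread between libraries differed by group for some chains. In MCT-vehicle, Itgb6 had an SD of 84.1 CPM around a mean of 216 CPM, while its Control SD was 11 CPM around 177 CPM (n = 4 per group). Itgad had an SD of 28.5 CPM around 57.4 CPM in MCT-vehicle and of 3.07 CPM around 29.8 CPM in Control. The difference in spread was not tested, and both genes were chosen after their values were seen. MCT-vehicle 3 held the highest values of Itgad and Itgb2 and the highest macrophage marker sum (1652 CPM).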
